A study of Homo sapiens with 36 samples.

Results

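The selenoprotein P locus and the classical glutathione peroxidases were described in HepG2 cells, an established human hepatoma line, treated with docosahexaenoic acid (DHA), propionate (PRO) and protocatechuic acid (PCA). The set held 6 of the 18932 genes in the table of counts, taken by symbol: CCDC152, SELENOP (listed under its older symbol SEPP1), GPX1, GPX2, GPX3 and GPX4. The set was chosen by a measured value, the lower counts of CCDC152 in 24 h treatments that contained DHA. SELENOP joined it as the gene that overlaps CCDC152 and the peroxidases as its relatives in function. Values in the 24 h comparisons of DHA treatments are therefore given as a description, with no p-value. In groups without DHA the genes moved in both directions with time. CCDC152 and SELENOP rose from 6 h to 24 h, GPX1 and GPX2 fell, and GPX3 and GPX4 were not called. Between these times 48.4% of all genes tested differed after correction, so changes of this kind were common. At 24 h CCDC152 had its lowest and GPX2 its highest group means in the groups that received DHA with PRO or PCA. For CCDC152 this partly restates the choice of the set, and these groups were not shown to differ from DHA alone.

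Selenoprotein P is the plasma protein that carries selenium from the liver to other tissues, and hepatocytes are its main source. It and GPX1 to GPX4 are selenoproteins, which contain selenocysteine, an amino acid inserted at a UGA codon that otherwise ends translation. These peroxidases use glutathione to reduce hydrogen peroxide and lipid peroxides. GPX1 is the widespread cytosolic enzyme, GPX2 the form best known from gut epithelium and liver, GPX3 the secreted plasma form, and GPX4 the form that reduces phospholipid hydroperoxides in membranes. CCDC152 encodes a coiled-coil protein of little known function, and an RNA from it has been described as an inhibitor of selenoprotein P translation.

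The selenocysteine codons are what makes the selenoproteins in this set alike, and their surroundings are shown for that reason. Each line is coding sequence from GRCh37, with the in-frame TGA in capitals. The first SELENOP codon is number 59 of 381 and lies in an exon of SELENOP alone, and codon 300 lies in the exon shared with CCDC152.
SELENOP codon 59: cttcaagccagcTGAtacctgtgcata
SELENOP codon 300: gctcctaggagcTGAtgctgccattgt
GPX1 codon 49: gtggcgtccctcTGAggcaccacggtc
GPX2 codon 40: gtggcttcgctcTGAggcacaaccacc
GPX3 codon 73: gtggccagctacTGAggcctgacgggc
GPX4 codon 73: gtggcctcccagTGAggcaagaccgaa
The positions of these stretches were chr5:42808267-42808293 and chr5:42801056-42801082 for SELENOP, both on the minus strand. They were chr3:49395553-49395579 for GPX1 and chr14:65409313-65409339 for GPX2, both minus, and chr5:150405018-150405044 for GPX3 and chr19:1105390-1105416 for GPX4, both plus. SELENOP held 10 in-frame TGA codons, of which 9 fell in the bases shared with CCDC152. GPX1, GPX2, GPX3 and GPX4 each held 1, and CCDC152 held 0 among its 254 coding codons.

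The 36 samples formed 12 groups of 3. Cells received vehicle (Ctrl), 50 µM DHA, 70 µM of the short-chain fatty acid PRO, 20 µM of the phenolic acid PCA, or DHA together with either PRO or PCA (DHA + PRO, DHA + PCA). Treatment lasted 6 h or 24 h. Treatments were given in serum-free medium. DHA was added from ethanol bound to bovine serum albumin, PCA from acidified dimethyl sulfoxide and PRO from water. The carriers of DHA and PCA, without the compounds, went into Ctrl. Each library pooled 3 culture replicates of 1 of 3 independent experiments on a single tumour line. Spread within a group of 3 is therefore spread between experiments. Comparisons that pool groups, by the main fits or by permutation, took all libraries as independent and held no term for the experiment. Those libraries came from only 3 experiments, so the p-values of pooled comparisons do not measure spread between experiments alone. Libraries of 6 h held 4659744 to 10788964 counts in total. Those of 24 h held 5617341 to 8657882, apart from replicate 2 of DHA + PRO, whose 42326734 was 6.22 times the median of the other 24 h libraries. Hepatocyte markers were high, with a median of 26193 CPM (counts scaled to each library total) for ALB, the gene of albumin. Of 8 markers of other liver cells, PTPRC and KRT7 (leukocytes, bile duct) had medians of 0 CPM, VWF and PECAM1 (endothelium) of 0.0359 and 0.144, and COL1A1 (stellate cells) of 0.883, whereas CD68 (macrophages) had 50.3, ACTA2 (stellate cells) 35.4 and KRT19 (bile duct) 227. All treatments at a time were compared with the same Ctrl libraries.

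The table placed CCDC152 (NM_001134848) at chr5:42756920-42802539 on the plus strand and SELENOP (NM_001093726) at chr5:42799982-42812024 on the minus strand of hg19, so that the spans overlap tail to tail by 2558 bp. In the reference annotation of the same build, 1452 bp of exon were shared, at chr5:42799982-42801433, which was 70.6% of the exon bases of the SELENOP transcript and 41.6% of those of CCDC152. The exons of CCDC152 (3491 bp) less the shared bases left 2039 bp, the exact length over which the table counted it. The counted length of CCDC152 therefore leaves the shared exon bases out. The same subtraction does not give the length for SELENOP: its 2056 bp transcript less the shared bases leaves 604 bp, and it was counted over 722 bp. That length is too short to hold all 1452 shared bases, but whether some of them entered its counts cannot be told. A further 1106 bp of CCDC152 exon lie inside the SELENOP span, and the library kit did not mark strand, so reads of unspliced SELENOP RNA there cannot be told apart from reads of CCDC152.

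GPX1 (NM_201397, chr3:49394609-49395791, minus), GPX3 (NM_002084, chr5:150399999-150408554, plus) and GPX4 (NM_002085, chr19:1103925-1106788, plus) overlapped no other gene in the table. GPX2 (NM_002083, chr14:65405870-65409623, minus) lay inside the span of the readthrough gene CHURC1-FNTB on the other strand, which shared 0 exon bases with it and had 0 counts in every library. GPX1 has processed pseudogenes of very similar sequence, and how reads that fit several places were handled was not given in the sources used here, so its level is less certain. All 6 genes passed the filter on low counts. Counts ran from 34 to 888 for CCDC152, the scarcest, and from 2070 to 21802 for GPX2.

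Levels were compared between genes per length, as CPM per kilobase of counted length (RPKM), in the 9 samples without DHA at each time (Ctrl, PRO and PCA). At 6 h the mean RPKM ± SD was 575 ± 22.5 for GPX2, 468 ± 74.0 for SELENOP, 285 ± 25.03 for GPX4, 117 ± 17.1 for GPX1, 80.8 ± 7.29 for GPX3 and 6.17 ± 0.797 for CCDC152. In this order GPX2 and SELENOP overlapped between samples, and so did GPX1 and GPX3. At 24 h SELENOP came first with 752 ± 100.0 RPKM, ahead of GPX2 with 349 ± 44.6 and GPX4 with 267 ± 25.2. GPX3 followed with 87.9 ± 14.5 RPKM, GPX1 with 73.8 ± 7.89 and CCDC152 with 13.6 ± 3.26. At that time the samples of GPX2 and GPX4 overlapped, as did those of GPX3 and GPX1. The order rests on the counted lengths. The same counts divided by all annotated exon bases of the gene (4944 bp for SELENOP) gave SELENOP 68.3 RPKM at 6 h and 110 at 24 h. Reads from exon bases outside the counted length are not in these counts, so these values are not levels over the whole gene.

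**Figure D1:**
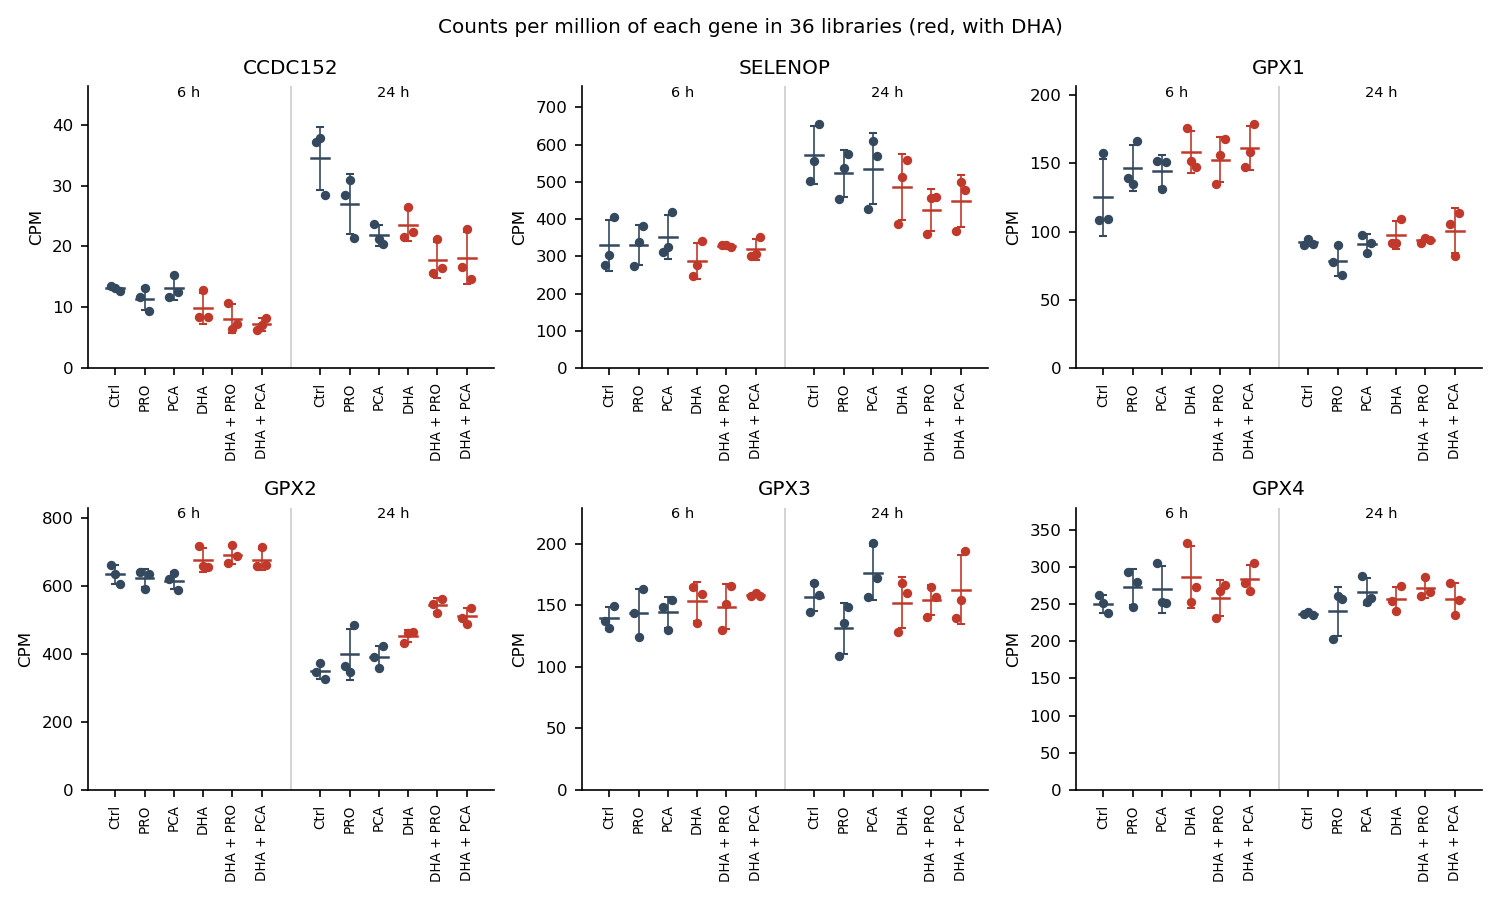
CPM of each of the 6 genes (vertical axis, linear, from 0) in the 36 libraries, by treatment at 6 h and 24 h, with points for libraries, horizontal lines for group means and bars for SD (n = 3). CCDC152 in Ctrl went from 13.2 CPM at 6 h to 34.5 at 24 h, and within each time its lowest means were in DHA + PRO and DHA + PCA; GPX2 fell with time and at 24 h was highest in the same treatments.

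In groups without DHA, 4 of the 6 genes differed between 6 h and 24 h. Culture time and anything else that differed between the harvests cannot be told apart here. The Ctrl libraries of 24 h, against which the genes were chosen, are part of this comparison, so it is also given below without Ctrl. CCDC152 had a lowest, median and highest CPM of 9.41, 12.7 and 15.4 at 6 h and 20.5, 28.5 and 37.8 at 24 h, so that no sample overlapped. It rose by 1.11 on the log2 scale (SE 0.112, edgeR quasi-likelihood test, adjusted p = 4.63e-10). SELENOP had a lowest, median and highest CPM of 275, 326 and 420 at 6 h and of 428, 556 and 655 at 24 h. It also rose without overlap, by 0.69 on the log2 scale (SE 0.0932, adjusted p = 2.45e-07).

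The peroxidases divided. GPX2 had a lowest, median and highest CPM of 590, 636 and 663 at 6 h and of 327, 366 and 485 at 24 h, and fell by 0.72 on the log2 scale (SE 0.0536, adjusted p = 3.60e-13). GPX1 went from 109, 139 and 166 CPM to 68.0, 90.3 and 97.8 CPM and fell by 0.67 (SE 0.0765, adjusted p = 8.10e-09). Neither gene overlapped between the times. GPX3 differed by 0.11 on the log2 scale (95% interval -0.04 to 0.26, adjusted p = 0.220) and GPX4 by -0.09 (-0.22 to 0.03, adjusted p = 0.212). Of all genes tested, 48.4% were called in this comparison and 11.3% did not overlap, so a change with time was common. In PRO and PCA alone, 6 libraries a time and a setting chosen after seeing the data, CCDC152 rose by 0.97 (SE 0.137, edgeR adjusted p = 8.86e-07) and SELENOP by 0.63 (SE 0.114, adjusted p = 4.69e-05). There GPX1 fell by 0.78 and GPX2 by 0.65, and these 4 members were called where 35.5% of all genes were.

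The 4 changes with time had the same sign within the earlier and later series of library numbers in the labels. The log2 differences were 1.13 and 0.99 for CCDC152, 0.74 and 0.57 for SELENOP, -0.61 and -0.75 for GPX1, and -0.80 and -0.59 for GPX2. An exact permutation test, two-sided, with 9 libraries a side, gave p = 4.11e-05 for each of the 4, the smallest it can give, and 0.264 for GPX3 and 0.152 for GPX4. With 6 tests at 6 h and 2 of a count ratio, both given below, 14 exact permutation tests of 9 against 9 were run. Their p-values are not adjusted, and they take libraries as exchangeable whatever their treatment or experiment. Another 42 exact permutation tests of 3 against 3, which cannot go below p = 0.1, are not printed. Markers of other liver cells moved with time too: 2 of their 4 tested genes, KRT19 (0.76) and ACTA2 (0.53), rose, and the summed level of all 8 was 207 to 286 CPM in libraries without DHA at 6 h and 302 to 450 at 24 h. Of the 8 hepatocyte markers TTR (1.63), SERPINA1 (0.70), AFP (0.46) and APOB (0.25) rose and FGB (-0.75) and HNF4A (-0.25) fell, and their summed level was 51065 to 57586 CPM at 6 h and 57972 to 65328 at 24 h. The part of either kind of marker in the changes was not tested. In RNA of whole cultures, fewer cells of a type and less RNA per cell cannot be told apart.

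At 6 h, CCDC152 was the member that differed most with DHA. Its CPM was 13.5, 13.2 and 12.8 in the 3 Ctrl libraries and 8.46, 12.8 and 8.39 under DHA. It was 10.8, 6.38 and 7.28 under DHA + PRO, and 6.28, 7.04 and 8.29 under DHA + PCA. All libraries of both co-treatments lay below every Ctrl library, whereas 1 DHA library reached the Ctrl range. With PRO alone the values were 11.8, 13.2 and 9.41 CPM and with PCA alone 11.6, 15.4 and 12.5, which overlapped Ctrl. The counts behind these values were as low as 34, and precision is limited accordingly.

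Against Ctrl at 6 h, the log2 fold change of CCDC152 was -0.41 for DHA (95% interval -0.85 to 0.04), -0.68 for DHA + PRO (-1.14 to -0.22) and -0.88 for DHA + PCA (-1.34 to -0.42). It was -0.19 with PRO (-0.63 to 0.25) and 0.00 with PCA (-0.44 to 0.43). None of these passed correction over all genes (adjusted p from 0.672 to 1). The 9 libraries with DHA against the 9 without gave -0.59 (SE 0.127, adjusted p = 0.0647), which missed the threshold of 0.05, and the exact permutation test gave p = 0.000617. The adjusted p was 0.0298 without a filter on low counts, 0.0264 with the library series as a term and 0.00457 by the DESeq2 Wald test, which would call it. It was 0.0304 without replicate 2 of DHA and 0.00935 without replicate 1 of DHA + PRO, and ran from 0.0551 to 0.189 in the other leave-one-out fits. Within the earlier library series the log2 difference was -0.55 (5 libraries against 6) and within the later -0.57 (4 against 3).

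Of the other members at 6 h, GPX2 had a lowest, median and highest of 590, 636 and 663 CPM without DHA and of 656, 668 and 723 with DHA. The change on the log2 scale was 0.12 (SE 0.0477, adjusted p = 0.9995 by edgeR), and the exact permutation test gave p = 0.000206. GPX1 gave 0.18 (SE 0.0814, exact permutation p = 0.0385), and SELENOP -0.12 (SE 0.0874, exact permutation p = 0.255), each with an adjusted p of 0.9995. GPX3 gave 0.10 and GPX4 0.05, with exact permutation p of 0.0901 and 0.374. Against Ctrl alone GPX1 gave 0.33 with DHA (95% interval 0.03 to 0.62), 0.27 with DHA + PRO (-0.03 to 0.56) and 0.36 with DHA + PCA (0.07 to 0.65), beside 0.22 with PRO and 0.20 with PCA. None of these passed correction (edgeR adjusted p from 0.999 to 1).

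At 6 h, 0 of the 6 members were called in any comparison, where edgeR called 0.0168% of all genes in each single comparison of a treatment with DHA, 0% for PRO or PCA, and 0.202% for DHA groups against the rest. An unadjusted p under 0.05 was seen for 3 members in the pooled comparison, 2 under DHA + PCA, 1 under DHA + PRO, 1 under DHA, and 0 under PRO or PCA. Of all 11872 genes such a p was seen for 342, 374, 264 and 337, in the same order, and for 196 under PRO and 86 under PCA. DESeq2 called CCDC152 in the pooled comparison and 0 members in the others. Members without overlap numbered 2 with DHA + PRO (CCDC152 and GPX2), where 5.08% of genes had none, and 3 with DHA + PCA (CCDC152, GPX3 and GPX4), where 10.4% had none.

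**Figure D2:**
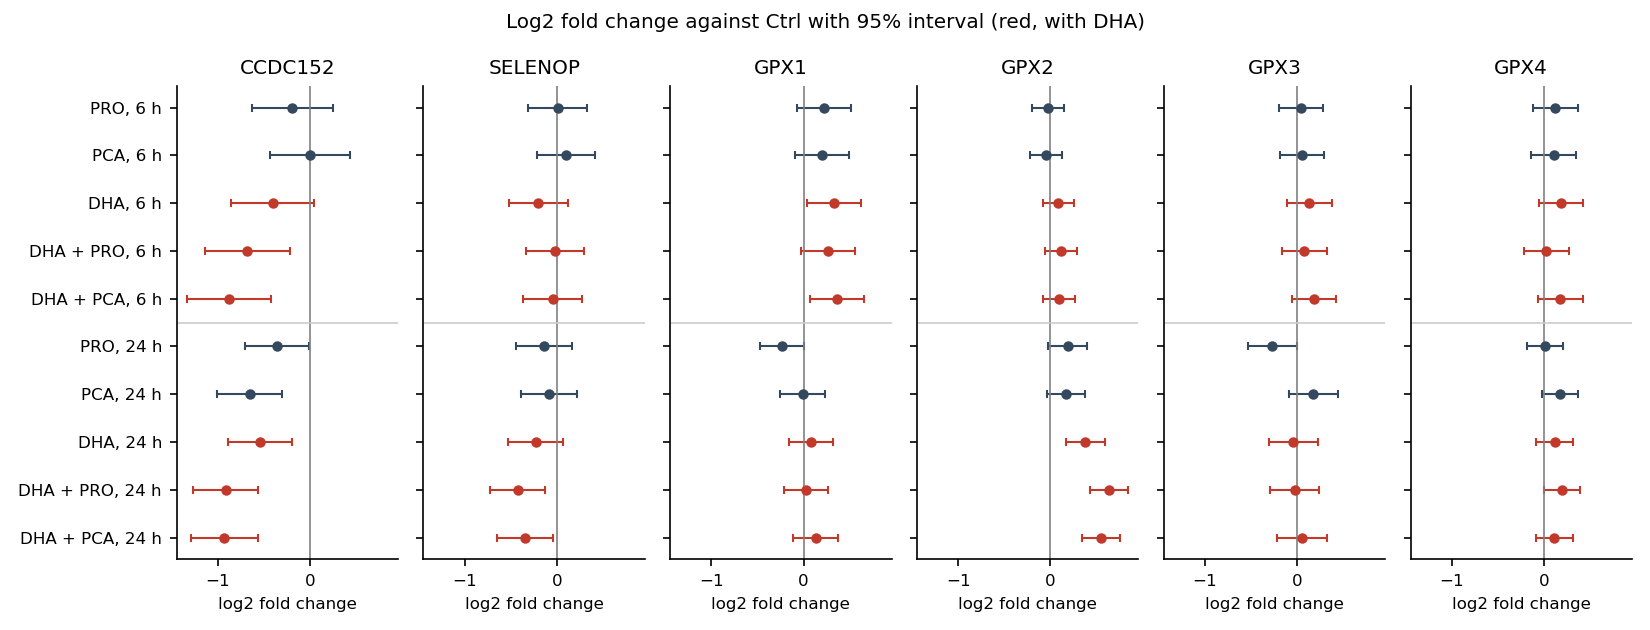
Log2 fold change of each gene against Ctrl (horizontal axis) with its 95% interval from edgeR, for the 5 treatments at 6 h (upper rows) and 24 h (lower rows), with treatments that contain DHA in red. The intervals at 24 h are a description, since libraries of 24 h entered the choice of the genes. CCDC152 lies left of 0 in every treatment at 24 h, from -0.36 with PRO to -0.93 with DHA + PCA, while GPX2 runs from 0.17 with PCA to 0.64 with DHA + PRO, GPX3 from -0.27 with PRO to 0.17 with PCA, and GPX4 from 0.01 with PRO to 0.19 with DHA + PRO.

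PRO and PCA alone at 24 h were set against the same 3 Ctrl libraries whose level entered the choice of the genes, so CCDC152 is given here as a description too. CCDC152 was 37.2, 37.8 and 28.5 CPM in Ctrl, 28.5, 30.9 and 21.4 with PRO, and 23.7, 21.3 and 20.5 with PCA. All PCA libraries thus lay below all Ctrl libraries, while PRO overlapped Ctrl. The log2 fold change was -0.66 with PCA (SE 0.172) and -0.36 with PRO (SE 0.168). GPX2 gave 0.19 with PRO and 0.17 with PCA, GPX3 -0.27 and 0.17, GPX1 -0.23 and -0.01, SELENOP -0.14 and -0.09, and GPX4 0.01 and 0.17.

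By edgeR, 0 of the 6 members were called with PRO and 0 with PCA at 24 h, where 0% of all genes were called. The members with an unadjusted p under 0.05 were 2 with PRO and 1 with PCA, among 716 and 454 of all genes, and DESeq2 called 0 members in either. With PCA, CCDC152 and GPX4 did not overlap with Ctrl, as was true of 10.3% of all genes. Nothing is read from these counts.

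In the 24 h treatments with DHA, which are given as a description, CCDC152 was 21.5, 26.5 and 22.4 CPM with DHA. It was 15.7, 21.2 and 16.4 with DHA + PRO and 16.6, 22.9 and 14.6 with DHA + PCA. Every one of these 9 libraries lay below the lowest Ctrl library at 28.5 CPM. The log2 fold change against Ctrl was -0.54 (SE 0.170) for DHA, -0.92 (SE 0.168) for DHA + PRO and -0.93 (SE 0.176) when PCA was added, the latter being 0.524 times the Ctrl level. Since PRO and PCA alone were also below Ctrl, the co-treatments were set against these as well, a comparison chosen after seeing the data. The log2 fold change was -0.56 for DHA + PRO against PRO and -0.28 for DHA + PCA against PCA, with a 95% interval of -0.65 to 0.10 for the latter. Of the 6 members 0 were called by edgeR in either, where 0.227% and 0.277% of all genes were. An unadjusted p under 0.05 was seen for 3 and 1 members, among 1142 and 780 of 11893 genes. DESeq2 called 1 member (GPX2) against PRO and 0 against PCA, where it called 47 and 52 genes. No overlap was seen for 3 members against PRO (CCDC152, GPX1 and GPX2) and 1 against PCA (GPX2), as for 12.9% and 14.5% of all genes.

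GPX2 went the other way in the 24 h treatments with DHA, with 347, 373 and 327 CPM in Ctrl and 433, 463 and 464 with DHA. It reached 548, 522 and 562 CPM with DHA + PRO and 507, 488 and 537 with DHA + PCA. The DHA, DHA + PRO and DHA + PCA libraries all lay above the Ctrl libraries, and both co-treatments lay above DHA alone. The log2 fold change against Ctrl was 0.38 (SE 0.101), 0.64 (SE 0.101) and 0.55 (SE 0.101), in the same order. Against PRO alone DHA + PRO gave 0.45, and against PCA alone DHA + PCA gave 0.38. The 2 genes did not mirror each other with PCA alone. There CCDC152 gave -0.66 without overlap with Ctrl, while GPX2 gave 0.17 and overlapped Ctrl. The level with DHA + PRO, 544 ± 20.4 CPM (SD, n = 3), was below the 635 ± 28.05 CPM of Ctrl at 6 h.

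SELENOP was 501, 556 and 655 CPM in Ctrl at 24 h and 387, 512 and 559 under DHA. The co-treatments had 360, 456 and 460 CPM (DHA + PRO) and 368, 499 and 477 CPM (DHA + PCA). The co-treatments did not overlap with Ctrl, while DHA alone did. The log2 fold changes were -0.23, -0.43 and -0.35, in the same order (SE 0.147 each), smaller in size than those of CCDC152. GPX1 was between 78.6 and 101 CPM in group means at 24 h, GPX3 between 131 and 176, and GPX4 between 237 and 271. With any DHA treatment their log2 fold change against Ctrl at 24 h lay between -0.04 and 0.19.

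The members called at 24 h were CCDC152, lower, and GPX2, higher, in DHA + PRO and in DHA + PCA, where 0.395% and 0.286% of all genes were called. These comparisons chose the set, and nothing is read from the count. With DHA alone 0 members were called by edgeR, where 0.193% of all genes were, and 0 by DESeq2. An unadjusted p under 0.05 was seen there for 2 members, among 708 of 11893 genes. Libraries did not overlap with Ctrl for 3 members under DHA, 4 under DHA + PRO and 3 under DHA + PCA, as for 10.7%, 14.9% and 12.7% of all genes. In the pooled comparison of the 9 libraries with DHA against the 9 without, made of the same libraries, CCDC152 gave -0.46 and GPX2 0.40. Both were called there, as were 1.23% of all genes, and nothing is read from this either. The CCDC152 call with DHA + PRO was lost without replicate 2 of Ctrl and without replicate 1 or 3 of DHA + PRO. With DHA + PCA it was lost without replicate 1 or 2 of Ctrl and without replicate 1 or 3 of DHA + PCA, and the GPX2 call there without replicate 3 of Ctrl or of DHA + PCA. In the pooled comparison the CCDC152 call was lost without replicate 3 of DHA + PCA. Leaving out the deep library, replicate 2 of DHA + PRO, gave -1.10 for CCDC152 and 0.67 for GPX2 in DHA + PRO against Ctrl.

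Whether PRO or PCA added to DHA at 24 h was compared directly. DHA + PRO against DHA gave a log2 fold change of -0.37 (SE 0.171) for CCDC152 and 0.26 (SE 0.100) for GPX2. DHA + PCA against DHA gave -0.39 (SE 0.180) and 0.17 (SE 0.100), in the same order. These libraries entered the choice of the set, so the values are a description. By edgeR 0 members and 0% of all genes were called in either, and DESeq2 called 0 members. An unadjusted p under 0.05 was seen for 2 and 1 members, among 527 and 276 of 11893 genes. The groups did not overlap for 2 members (CCDC152 and GPX2) in the first and 1 (GPX2) in the second, as for 10.7% and 7.9% of all genes. That calls were made for the co-treatments and not for DHA alone is therefore not shown to be a difference between them. The pooled DHA difference at 24 h minus that at 6 h was 0.12 for CCDC152 (SE 0.162), -0.14 for SELENOP (SE 0.131) and 0.27 for GPX2 (SE 0.0753). These values are a description too. By edgeR 0 members were called, among 0% of all genes, and by DESeq2 0 members, among 6 genes. An unadjusted p under 0.05 was seen for 1 member, among 368 of 12046 genes.

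Since CCDC152 and SELENOP share a locus, their counts were also taken as a ratio within each library, a measure chosen after seeing the counted lengths. At 6 h there were 3.82 ± 0.818 CCDC152 counts per 100 SELENOP counts in the 9 libraries without DHA and 2.75 ± 0.870 in the 9 with DHA. The lowest, median and highest were 2.47, 3.90 and 4.84 without DHA and 1.94, 2.36 and 4.63 with it, so the groups overlapped. The geometric mean ratio with DHA was 0.707 times that without (exact permutation p = 0.0143), and the log2 difference was -0.51 within the earlier library series and -0.34 within the later.

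From 6 h to 24 h without DHA the ratio was 1.34 times as high (exact permutation p = 0.0298), with 5.21 ± 1.47 counts per 100 at 24 h. The log2 difference in time was 0.42 and 0.45 within the library series, but p lay between 0.0517 and 0.0593 without any 1 of 6 libraries: replicate 1 or 2 of Ctrl or replicate 1 of PRO at 24 h, or replicate 3 of Ctrl, PRO or PCA at 6 h. In PRO and PCA alone the log2 difference in time was 0.35 (exact permutation p = 0.134, 6 libraries a side), which missed the threshold with fewer libraries. Replicate 3, all of it in the later series, had lower ratios (median 3.10) than replicates 1 (4.44) and 2 (4.61). At 24 h with DHA the ratio was 4.39 ± 0.767, which is given as a description.

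**Figure D3:**
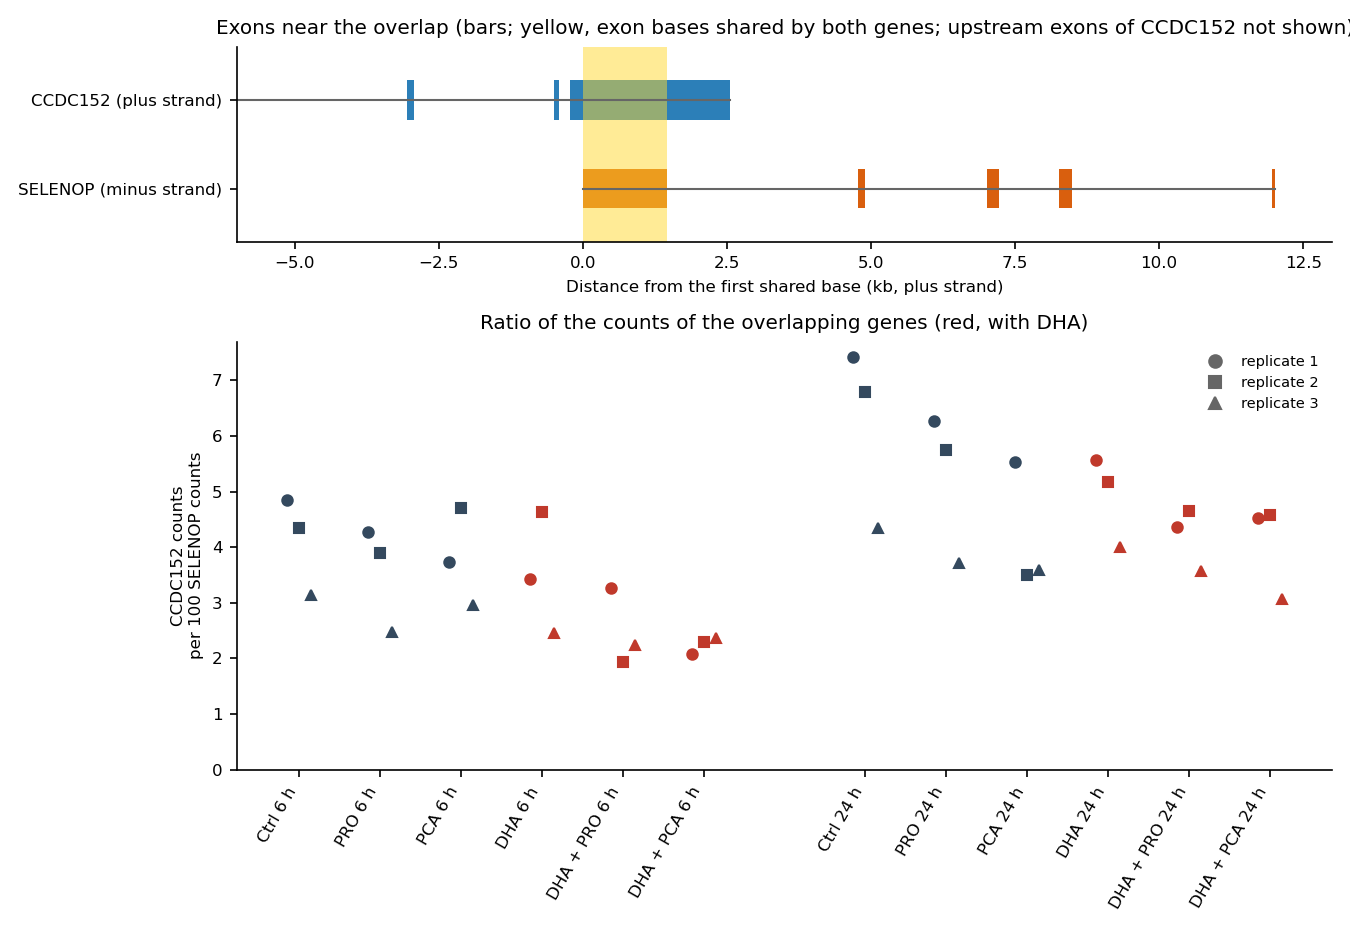
Upper panel, exons of CCDC152 and SELENOP as bars on a line in kilobases from the first shared base, with the 1452 bp shared by both in yellow; lower panel, CCDC152 counts per 100 SELENOP counts in each library (vertical axis, linear, from 0), with symbols for replicates and red for groups with DHA. The shared bases take up most of the last SELENOP exon, and the ratio was 1.94 to 4.84 in libraries of 6 h, with 3.07 to 7.42 in those of 24 h.

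The wider selenoprotein system was read from lists of other selenoproteins, of the machinery that inserts selenocysteine, of genes that supply glutathione, of other enzymes that remove peroxides, and of receptors and regulators of selenoprotein P. At 6 h the pooled DHA comparison called 0 genes of any list (edgeR), and GCLM, the modifier subunit of the enzyme that starts glutathione synthesis, had the highest log2 fold change of all lists at 0.39 (adjusted p = 0.143). The other extremes at 6 h were TXNRD3 at 0.21 and DIO1 at -0.22 among 16 selenoproteins tested, EEFSEC at 0.09 and SEPSECS at -0.13 among 7 machinery genes, GGT1 at -0.01 in glutathione supply, SOD1 at 0.15 and PRDX3 at -0.02 in peroxide removal, and FOXO1 at -0.01 and PPARGC1A at -0.13 among regulators.

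At 24 h, 3 listed genes were called higher with DHA in the pooled comparison. The lists were chosen with earlier results of these data known, so this is a description with no p-value. The 3 were TXNRD1, a selenoprotein that reduces thioredoxin (0.32, SE 0.0506), GCLC, the catalytic subunit of the first enzyme of glutathione synthesis (0.32, SE 0.0556), and SLC7A11, which imports cystine for glutathione (0.57, SE 0.129). TXNRD1 was also called with DHA + PRO against Ctrl (0.39). Where 1.23% of all genes were called, the glutathione supply list had 2 of 6, with a median of 0.21 against 0.01 over all genes, and the other selenoproteins 1 of 16, with a median of -0.01. Nothing is read from the list counts. Called genes numbered 0 of 7 in the machinery (RPL30 at 0.09, SEPSECS at -0.13), 0 of 12 in peroxide removal (TXN at 0.23, SOD2 at -0.15) and 0 of 5 among regulators (FOXO3 at -0.01, FOXO1 at -0.12). The lowest of the selenoproteins was SELENOS at -0.13 and of glutathione supply GGT1 at -0.16. GPX7, the 1 gene tested of the other glutathione peroxidases, which lacks selenocysteine, had 0.11 at 6 h and -0.06 at 24 h.

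**Figure D4:**
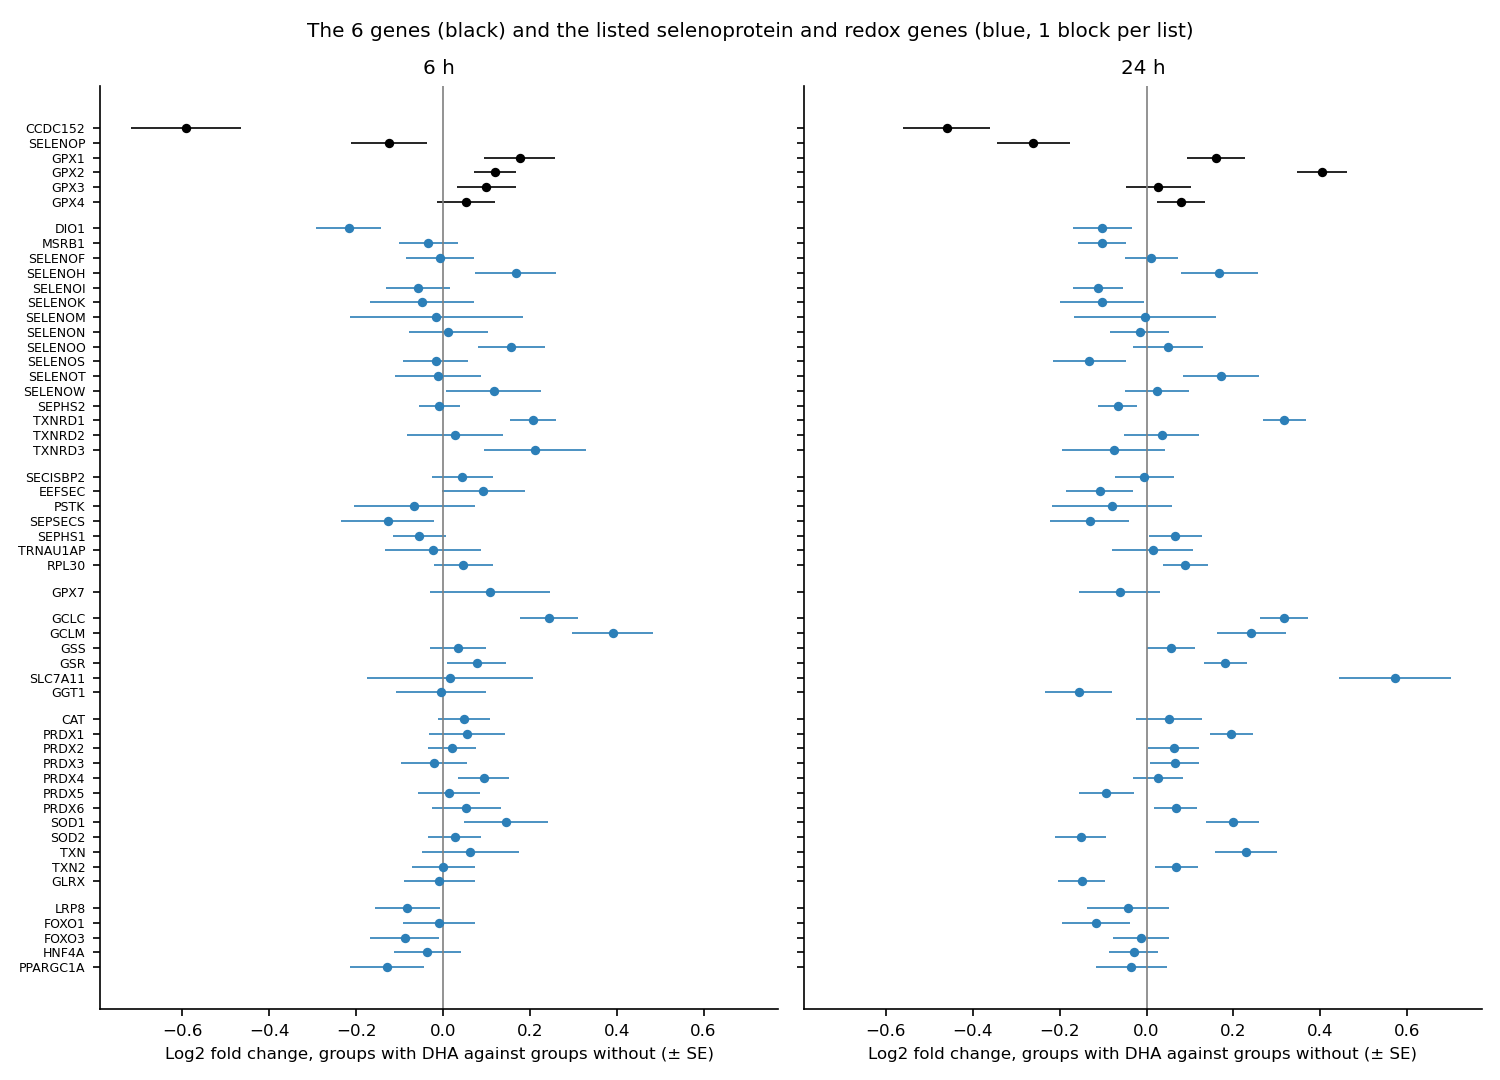
Log2 fold change of groups with DHA against groups without (horizontal axis, bars for SE) at 6 h and 24 h, for the 6 genes in black and for the tested genes of each list in blue, 1 block per list. At 24 h GPX2 (0.40), TXNRD1 (0.32), GCLC (0.32) and SLC7A11 (0.57) lie to the right and CCDC152 (-0.46) and SELENOP (-0.26) to the left, and most listed genes are near 0.

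From 6 h to 24 h without DHA, where 48.4% of all genes were called, the lists moved in both directions. Of the 16 other selenoproteins tested 5 fell, namely TXNRD1 (-0.99), SELENOT (-0.76), SELENOF (-0.45), SELENOK (-0.45) and SELENOH (-0.34), and TXNRD3 (0.66) and SELENON (0.23) rose. In glutathione supply GCLM (-1.03), GCLC (-0.88) and GSR (-0.76), the reductase that regenerates glutathione, fell together with GPX1 and GPX2, while GSS rose (0.16), and the median of this list was -0.35 against -0.01 over all genes. In peroxide removal TXN (-0.62), CAT (-0.61), PRDX1 (-0.59), PRDX3 (-0.36) and PRDX4 (-0.19) fell, and PRDX5 (0.41), GLRX (0.40) and SOD2 (0.17) rose. In the machinery EEFSEC (0.36) and SECISBP2 (0.17) rose and SEPHS1 (-0.43) fell. GPX7 rose by 0.75. Among the receptors and regulators FOXO1 (0.37) and LRP8 (0.28), a selenoprotein P receptor, rose, and PPARGC1A (-0.46) and HNF4A (-0.25) fell.

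The genes whose pattern was most like that of each member were found by Pearson's r among 11944 genes, as a description, since the points share libraries and the time difference. CCDC152 was also chosen for its lower counts with DHA at 24 h. Its likeness to other genes that are lower with DHA follows in part from that choice. Over the 12 group means, CCDC152 was nearest to SPRY1 (0.983), PIK3CB (0.971), HMGCS1 (0.968), CYB5B (0.967) and GLO1 (0.966). Over the 36 samples after the mean of each time was subtracted, the nearest were STARD4 (0.790), HMGCS1 (0.781), CYP51A1 (0.775), MSMO1 (0.765) and SQLE (0.753). Of these, HMGCS1, CYP51A1, MSMO1 and SQLE encode enzymes of cholesterol synthesis, which the study reported as repressed by DHA, and STARD4 a cholesterol carrier. SELENOP, its neighbour, was not among them, with r = 0.932 over group means and 0.289 over centred samples.

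GPX2 was nearest to AKR1B10 (0.987), NQO1 (0.987) and EPHX1 (0.978) over group means, and to AKR1B10 (0.888), AKR1C2 (0.853) and AKR1C1 (0.851) over centred samples, all enzymes that detoxify carbonyls, quinones or epoxides. Its r with CCDC152 was -0.950 and -0.694. SELENOP was nearest to PAQR9, PEG10 and CTGF over group means (0.983 to 0.987). GPX1 was nearest to MT1E, MT2A and EPHB4 (0.981 to 0.984), of which MT1E and MT2A are metallothioneins. GPX3 was nearest to CUTA, ZHX3 and SPATA2L (0.881 to 0.959) and GPX4 to PHB, TIMM13 and ATP13A2 (0.927 to 0.937).

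With these neighbours in view, the promoters of the members (250 bases before to 50 after the start site, RefSeq, GRCh38.p14) were searched on both strands for the antioxidant response element core TGACNNNGC and the sterol regulatory element TCACNCCAC. The first was present in 13.3% and the second in 1.13% of 35116 promoters. The core was found in GPX2, from base -122, and in SELENOP, from base -99, both on the minus strand of the promoter, and the sterol element in 0 members. The stretches around the matches, with the match in capitals, are shown because these genes moved in opposite directions.
GPX2 promoter: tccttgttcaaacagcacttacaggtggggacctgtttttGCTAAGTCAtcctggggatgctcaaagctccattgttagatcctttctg
SELENOP promoter: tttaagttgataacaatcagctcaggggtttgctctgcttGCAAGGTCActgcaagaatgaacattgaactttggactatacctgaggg
They lie at chr14:64942819-64942907 and chr5:42811943-42812031 of GRCh38.p14, both on the minus strand. A match describes the letters and shows no binding.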

How the data were processed

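RNA-seq of 36 HepG2 libraries was taken from the deposited table. The authors aligned reads to hg19 with STAR and used the iRNA-seq pipeline, and the deposited values are raw counts per RefSeq gene with no normalization. The deposited table also gives positions and counted lengths, another unit, used for overlaps and RPKM. Tool versions were not given in the sources used here. Groups and replicate numbers came from the labels, doses from the study's methods. Molecular identifiers are not described, so counts are reads.

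Counts were fitted in R 4.3.3 with edgeR 4.0.16 (TMM, filterByExpr, quasi-likelihood F test, no robust estimation), separately for the 18 samples of each time (11872 and 11893 genes) and jointly for all 36 (12046 genes). Benjamini-Hochberg adjustment ran over all genes of a fit. A gene was called where the adjusted p did not exceed 0.05 and log2 CPM averaged above 0. CPM used TMM-scaled totals, and 0.5 was added to CPM before logs. Scripts were tested on simulated data. Same-group libraries differed beyond counting noise (chi-square per degree of freedom 2.21 to 25.1), so none was a duplicate. Exons and coding sequence came from GENCODE on GRCh37, promoters from RefSeq. Figures used matplotlib 3.10.9.

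The members and lists were chosen with earlier results of these data known. Named are all members, listed genes called in at least 1 comparison, the highest and lowest of each list in the pooled DHA comparisons, and the nearest 5 genes to CCDC152 and 3 to each other member. Alternatives were DESeq2 size factors, the DESeq2 1.42.0 Wald test, no filter, a replicate block, a library series block, fits of only the groups compared, each library left out, unscaled totals and exon lengths. Chosen after seeing the data were comparisons with PRO and PCA alone, the change with time in PRO and PCA groups only, and the CCDC152 to SELENOP ratio.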

Additional observations from a re-analysis of the deposited data

How the results depend on the processing

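Libraries with the same replicate number were on average more alike than others, though not in every pair. Their residuals correlated by -0.133 to 0.502 at 6 h (mean 0.273, 38 of 45 pairs above 0.1) and by -0.204 to 0.351 at 24 h (mean 0.159, 34 of 45). Pairs with different numbers had a mean of -0.133 at 6 h (15 of 90 above 0.1) and -0.0788 at 24 h (6 of 90). Residuals from a group mean cancel within the group, which pushes the means of these pairs negative. The main fits held no term for the replicate number. With the replicate block the pooled 6 h comparison called 1 member (CCDC152, adjusted p = 0.0138) in place of 0, and DHA against Ctrl at 24 h called 2 (CCDC152 and GPX2) in place of 0. The block also added SELENOP to the calls of DHA + PRO, DHA + PCA and the pooled comparison at 24 h. It further called CCDC152, SELENOP and GPX2 for DHA + PRO against PRO (3 members in place of 0) and GPX2 for DHA + PCA against PCA (1 in place of 0) at 24 h. The block took the genes called from 24 to 64 (pooled, 6 h) and from 146 to 367 (pooled, 24 h). The pooled 6 h comparison also called 1 member without a filter, with the library series block and by DESeq2, and DHA + PCA at 24 h called 1 in place of 2 by DESeq2. Without a filter SELENOP joined the pooled 24 h calls. By DESeq2 the genes called were 45 and 222 in the pooled comparisons, and with the library series block 46 and 203.

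With each library left out, members called ran from 0 to 1 (pooled, 6 h), 1 to 2 (DHA + PRO, 24 h), 0 to 2 (DHA + PCA, 24 h) and 1 to 2 (pooled, 24 h), and stayed at 4 for the change with time. The log2 ratio of CCDC152 to SELENOP ran from 0.35 to 0.49 for time and from -0.60 to -0.44 for DHA at 6 h. The 4 changes with time kept their direction and call under all alternatives run, those in PRO and PCA groups only included, where the log2 ratio rose by 0.35 and was no longer past the threshold (exact permutation p = 0.134). Unscaled totals moved 0 of 72 group means by 1 SD. Exon lengths, applied to unchanged counts, moved 10 of 12 mean RPKM values. Among them were SELENOP and GPX4 (144 at 6 h, 135 at 24 h), GPX2 (467, 283), GPX3 (47.4, 51.5) and CCDC152 (3.61, 7.95). CCDC152 at 6 h is limited by its low counts.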
